A study of Homo sapiens with 6 samples.

Results

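The metallothionein genes MT1E, MT1F, MT1G, MT1M, MT1X and MT2A were examined together with MTF1 and SLC30A1 in HGC-27 cells exposed to the peptide GLUP. These 8 genes were taken by symbol, and all 8 were present among the 62443 genes of the expression table. HGC-27 is an established human gastric cancer line described as undifferentiated. RNA-sequencing profiles were available for 3 control samples (Con), which the labels list as untreated and which, by the study's methods, received a HEPES and sodium chloride buffer as the negative control, and for 3 samples treated with GLUP. GLUP is a cyclised peptide modelled on the TEAD4-binding motif of VGLL4, made to hold molecules of the transcription factor TEAD4 together. The labels give neither dose nor duration, and the study states the duration differently in its results and in its methods. All samples are wild-type cells of 1 line, and nothing in the labels says whether the replicates were separate cultures, so that the p-values measure only the spread between these samples.

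Metallothioneins are very small, cysteine-rich proteins of the cytosol and nucleus that bind zinc and copper and sequester toxic metals such as cadmium. Their human genes lie side by side on chromosome 16, and most are switched on by the zinc-sensing transcription factor MTF1, which binds metal response elements in their promoters when free zinc rises. MTF1 also drives SLC30A1, the transporter (ZnT1) that carries zinc out of the cell across the plasma membrane, so that buffering and export usually respond to zinc together. Glucocorticoids and oxidative stress are other known inducers of metallothionein genes.

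The promoters are shown first because they carry the sites through which zinc is known to act on these genes. Promoter sequences were found for 4 of the 8 genes (MT2A, MT1X, SLC30A1 and MTF1) in the RefSeq table of build GRCh38.p14. MT1E, MT1F, MT1G and MT1M had no entry. The core of the metal response element was searched as TGCACNC and TGCGCNC, where N is any base, on both strands and with overlaps allowed. The 250 bases before the start of each gene are written 5′ to 3′ along the gene, with the matches to this core in capitals. The region is chr16:56608334-56608583 (plus strand) for MT2A, chr16:56682220-56682469 (plus strand) for MT1X and chr1:211579162-211579411 (minus strand) for SLC30A1.
MT2A: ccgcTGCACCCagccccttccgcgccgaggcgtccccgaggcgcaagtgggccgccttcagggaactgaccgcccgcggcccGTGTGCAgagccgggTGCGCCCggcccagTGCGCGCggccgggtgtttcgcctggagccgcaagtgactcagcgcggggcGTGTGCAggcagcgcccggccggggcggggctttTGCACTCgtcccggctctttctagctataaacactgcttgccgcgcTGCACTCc
MT1X: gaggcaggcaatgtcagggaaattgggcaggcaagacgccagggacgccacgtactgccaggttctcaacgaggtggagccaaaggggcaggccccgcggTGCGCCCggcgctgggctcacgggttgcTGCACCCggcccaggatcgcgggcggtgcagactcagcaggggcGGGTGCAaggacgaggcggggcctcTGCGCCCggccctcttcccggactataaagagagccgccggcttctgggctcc
SLC30A1: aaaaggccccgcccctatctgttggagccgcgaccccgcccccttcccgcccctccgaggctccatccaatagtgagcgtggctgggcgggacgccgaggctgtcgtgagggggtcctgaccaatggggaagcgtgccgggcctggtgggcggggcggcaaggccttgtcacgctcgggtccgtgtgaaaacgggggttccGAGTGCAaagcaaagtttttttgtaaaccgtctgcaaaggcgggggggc

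Within these 250 bases MT2A had 7 matches, MT1X had 4, SLC30A1 had 1 and MTF1 had 0. Among all 35116 promoters of this length, 24.8% had at least 1 match, 0.370% at least 4 and 0.0313% at least 7. The first 50 transcribed bases held 1 further match in MT2A and 1 in SLC30A1. The letters TATAAA stood in the 50 bases before the start of MT2A and of MT1X, as in 2.63% of all promoters, and were not in that stretch of SLC30A1 or MTF1. A match describes the letters only and does not show that MTF1 binds there.

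**Figure D1:**
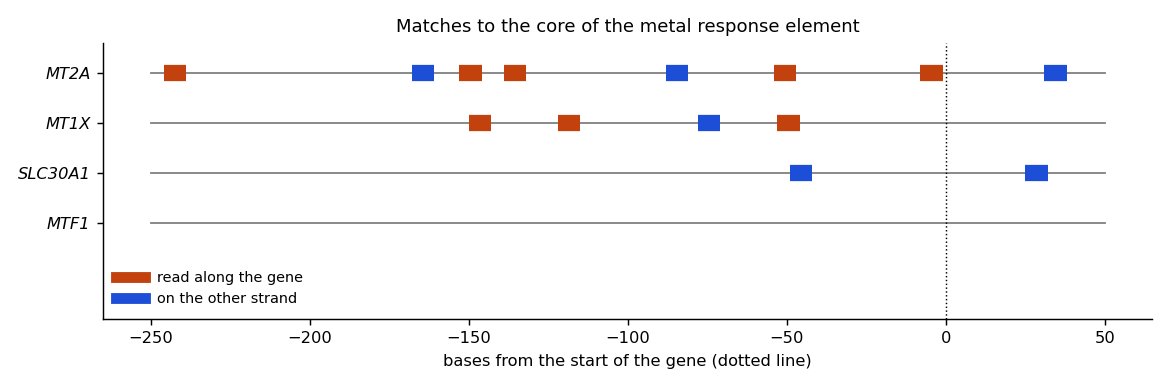
Positions of matches to TGCACNC or TGCGCNC from 250 bases before to 50 bases after the start of 4 genes, with the distance from the start on the x axis and the strand of the match in colour. MT2A had 8 matches over the whole window, MT1X 4, SLC30A1 2 and MTF1 0.

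Levels are given in FPKM, in which fragments are divided by gene length and by the sequenced total, so that they can be compared between genes. MT2A (ENSG00000125148, protein-coding, on the plus strand of chromosome 16 from 56642496 to 56643409 in GRCh37) was the most abundant of the 8 genes in every library. It encodes the main metallothionein of most human tissues. Its level was 309.0, 261.3 and 394.6 FPKM in Con replicates 1 to 3, and 760.9, 754.7 and 1287 FPKM in GLUP replicates 1 to 3. All 3 GLUP values were above all 3 Con values, and GLUP replicate 3 stood well above the others. The means were 321.6 ± 67.6 FPKM in Con and 934.4 ± 305.8 FPKM in GLUP (SD, n = 3 each), a ratio of 2.91. By mean level MT2A moved from rank 321 to rank 153 among the 7406 genes that averaged 1 FPKM or more.

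The difference was tested with limma on log2(FPKM + 1) over all 7406 genes. For MT2A the fit gave 1.51 on the log2 scale (SE 0.31). The unadjusted limma p was 0.00072 and the adjusted p 0.194, so that MT2A did not pass the threshold of 0.05. Its log2 fold change was the 40th largest of the 7406. No gene passed in this comparison (0% of the genes tested), while 1606 genes (21.7%) had an unadjusted p under 0.05, of which 330 (4.46%) were higher in GLUP and 1276 (17.2%) lower. Over the tested genes the fold changes had a log2 median of -0.23, and MT2A lay 1.74 above it. After scaling by the trimmed mean of log ratios, the 1409 genes under an unadjusted 0.05 were split into 755 higher and 654 lower, and the log2 fold change of MT2A was 1.81. Without Con replicate 3, the Con library with the most MT2A, the log2 fold change of MT2A was 1.67. Its unadjusted limma p was then 0.00127, higher than with all libraries, and its adjusted p 0.0289. That fit had 2986 genes under an unadjusted 0.05 and called 1367 (18.5%), 163 (2.2%) of them higher. An exact permutation test of the 3 against 3 libraries gave 0.1 (two-sided), the smallest p this design allows.

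MT1X (ENSG00000187193, protein-coding, chromosome 16, 56716382 to 56718108, plus strand) was the only other metallothionein gene of the 8 that exceeded 1 FPKM. It is the last of the protein-coding metallothionein genes along the cluster, next to NUP93. Its level was 65.1, 69.6 and 70.8 FPKM in the Con replicates and 102.2, 108.7 and 157.8 FPKM in the GLUP replicates. The Con values lay within a narrow range, all GLUP values were above them, and GLUP replicate 3 was again the highest. The means were 68.5 ± 2.97 FPKM (SD, n = 3) and 122.9 ± 30.4 FPKM (SD, n = 3), a ratio of 1.79. The fit gave 0.81 on the log2 scale (SE 0.30), which lay 1.04 above the median of the tested genes. The adjusted p from limma was 0.198 and the unadjusted one 0.0217. Without GLUP replicate 3 the log2 difference was 0.62 and limma's adjusted p 0.406. In both genes the groups did not overlap and GLUP was higher, as in 559 of the 7406 tested genes (7.55%), while 30.3% of tested genes had groups apart in either direction.

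**Figure D2:**
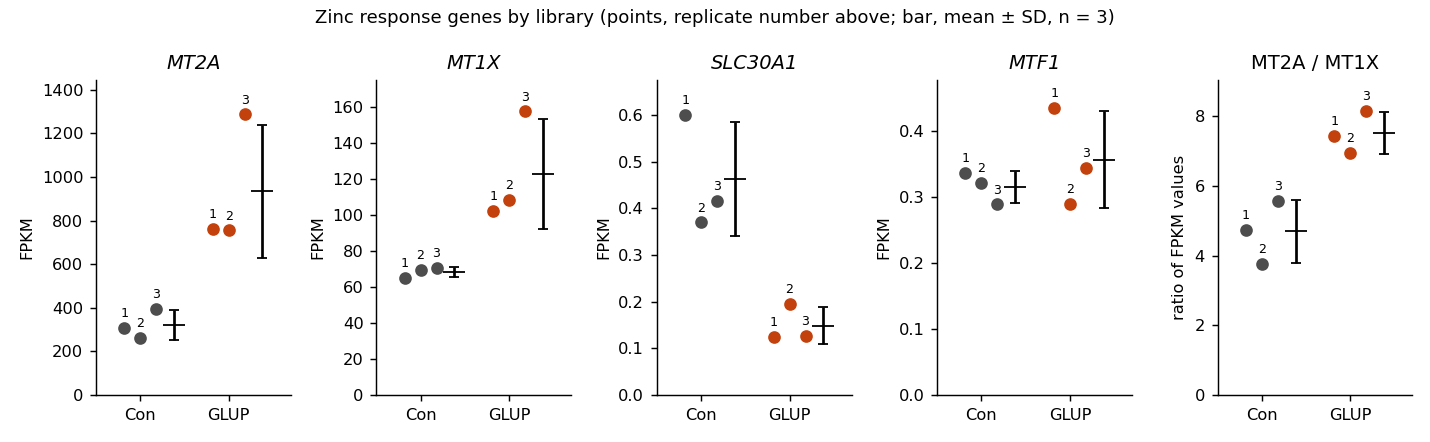
FPKM of MT2A, MT1X, SLC30A1 and MTF1, and the ratio of MT2A to MT1X, in each library of Con (grey) and GLUP (orange), with the replicate number above each point and the mean ± SD of 3 libraries beside it. MT2A, MT1X and their ratio were higher in every GLUP library than in any Con library, SLC30A1 was lower in every GLUP library, and MTF1 overlapped. After correction for GC content and length the fitted log2 difference of SLC30A1 was 0.15 with a pseudocount of 1 and -0.88 with 0.01.

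The family was next considered as a whole, because its members resemble each other in sequence and reads can be divided between them. The FPKM of the 6 metallothionein genes summed to 374.4, 330.9 and 465.3 in Con and to 863.1, 863.5 and 1445 in GLUP. The means of these sums were 390.2 ± 68.6 (SD, n = 3) and 1057 ± 336.0 (SD, n = 3), a ratio of 2.71. As a share of all FPKM, the family went from between 0.0359% and 0.0492% in Con to between 0.0909% and 0.150% in GLUP. The sum was thus higher in every GLUP library than in any Con library, and it was nearly all MT2A and MT1X.

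MT2A differed by more than MT1X. The ratio of MT2A to MT1X within a library, which does not depend on how the library is scaled, was 4.75, 3.76 and 5.58 in Con and 7.45, 6.94 and 8.16 in GLUP. The lowest GLUP ratio was above the highest Con ratio, and the means were 4.69 ± 0.912 (SD, n = 3) and 7.52 ± 0.612 (SD, n = 3). MT2A made up 79.0% to 84.8% of the summed metallothionein FPKM in Con and 87.4% to 89.1% in GLUP. These ratios were chosen after the values had been seen and were not tested.

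The remaining metallothionein genes of the list encode close relatives of MT1X and were at or near 0. MT1G (chromosome 16, 56700642 to 56701977, minus strand) and MT1M (56666571 to 56667893, plus strand) were listed at 0 in all 6 libraries. MT1E (56659387 to 56661024, plus strand) was listed at 0.299 FPKM in Con replicate 1 and at 0 elsewhere. MT1F (56691643 to 56694610, plus strand) was listed at 0.0641 FPKM in GLUP replicate 2, at 0.0018 FPKM in GLUP replicate 3 and at 0 elsewhere. With no read counts in the table, the smallest level that could have been seen is unknown, and no fold change is given for these 4 genes.

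Of 15 further metallothionein genes and pseudogenes, 14 were in the table, and MT1IP was not analysed here. In total 10 were listed at 0 in every library: MT1A, MT1B, MT1H, MT1HL1, MT1L, MT1JP, MT1DP, MT1CP and MT1P3 of the MT1 group, and MT4. MT3, the metallothionein known from brain, reached at most 0.0915 FPKM, MT1P1 at most 0.128 FPKM and MT1XP1 at most 0.704 FPKM, each with values of 0 in at least 1 library. MT2P1, an intronless pseudogene copy of MT2A, was at 0.131, 1.44 and 0.286 FPKM in Con and at 2.00, 1.60 and 5.22 FPKM in GLUP. All its GLUP values were above its Con values, a fitted log2 difference of 1.26 (SE 0.39), and limma's adjusted p was 0.194. Its level was 0.0425% to 0.551% of that of MT2A in the same library.

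How much sequence the genes share was measured in stretches of 50 bases of the canonical transcript. For MT2A 10.2% of 352 such stretches also occurred in a transcript of another gene of the table, 5.68% in MT2P1 and 4.55% in MT1G. For MT1X the figure was 51.0% of 355, made up mainly of the overlapping long non-coding gene ENSG00000259827, annotated on the same strand (33.0%), MT1G (13.2%) and MT1XP1 (10.7%). That gene and MT1G were both listed at 0 in every library. Read length and the handling of shared reads are not given in the sources used here, so the division of reads between MT1X and its relatives is uncertain, as are the values of MT2P1.

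MTF1 (ENSG00000188786, protein-coding, chromosome 1, 38275246 to 38325264, minus strand), the zinc sensor itself, was expressed at a low level. It was at 0.336, 0.322 and 0.288 FPKM in Con and at 0.435, 0.290 and 0.344 FPKM in GLUP. The groups overlapped, and the means were 0.315 ± 0.0243 FPKM (SD, n = 3) and 0.356 ± 0.0732 FPKM (SD, n = 3). Being below 1 FPKM, MTF1 and SLC30A1 took their tests from a limma fit over all 31444 genes above 0 in at least 1 library. MTF1 differed by 0.04 on the log2 scale (SE 0.11), and limma's adjusted p was 0.851. After removal of the trend in GC content and length its log2 difference was 0.38, with limma p-values of 0.0394 unadjusted and 0.217 adjusted.

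SLC30A1 (ENSG00000170385, protein-coding, chromosome 1, 211744910 to 211752503, minus strand), the zinc exporter, showed the opposite order of levels. Its fitted difference was negative in every setting except removal of the trend in GC content and length on the log2(FPKM + 1) scale. Its level was 0.601, 0.370 and 0.416 FPKM in Con and 0.125, 0.194 and 0.126 FPKM in GLUP. Every GLUP value was below every Con value, with means of 0.462 ± 0.122 FPKM (SD, n = 3) and 0.149 ± 0.0397 FPKM (SD, n = 3), a ratio of 0.321. On the log2(FPKM + 1) scale, which compresses differences between values this low, it differed by -0.35 (SE 0.12). The adjusted p from limma was 0.589 and the unadjusted one 0.0256. With a pseudocount of 0.01 it was -1.57, while removal of the trend in GC content and length on the log2(FPKM + 1) scale turned it to 0.15. The same removal with a pseudocount of 0.01, a setting chosen after seeing the data, gave -0.88. Of these 31444 genes, 2541 (8.08%) had an unadjusted p under 0.05, 1855 (5.9%) of them lower in GLUP, while 3068 (9.76%) had GLUP values entirely below Con and 1379 (4.39%) entirely above. By their levels SLC30A1 therefore lay below Con, and MT2A and MT1X above it. The FPKM of MT2A divided by that of SLC30A1 ranged from 513.9 to 947.7 in Con and from 3883 to 10199 in GLUP. This ratio was chosen after the values had been seen and was not tested. It divides by levels of 0.125 to 0.601 FPKM, whose error is unknown without read counts.

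Counted together, 6 of the 8 genes were above 0 in at least 1 library and 4 were above 0 in every library. None of the 6 passed an adjusted p of 0.05, and 3 (MT2A, MT1X and SLC30A1) had an unadjusted p under 0.05. MT2A and MT1X come from the fit in which 21.7% of genes were under 0.05, and SLC30A1 from the fit in which 8.08% were. Their number is a description, since the genes were chosen with earlier results of these data known.

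The other zinc transporters were then examined. Most, though not all, of the remaining SLC30 proteins move zinc out of the cytosol into vesicles and organelles. Of the 9 remaining SLC30 genes, 8 were above 0 in some library and none had an unadjusted p under 0.05. The share of all genes under it was 21.7% in the fit used for SLC30A9 and 8.08% in the fit used for the others. SLC30A9 was at 3.29 ± 0.876 FPKM in Con and 2.80 ± 0.483 FPKM in GLUP (SD, n = 3 each), and SLC30A5, which loads the secretory pathway, was at 0.757 ± 0.434 and 0.497 ± 0.140 FPKM (SD, n = 3 each). In both, the groups overlapped. SLC30A3 and SLC30A7, named after their values were seen, had every GLUP value below every Con value, at 0.318 ± 0.118 and 0.177 ± 0.0031 FPKM for SLC30A3 and at 0.578 ± 0.219 and 0.312 ± 0.0200 FPKM for SLC30A7 (SD, n = 3 each). Limma's adjusted p was 0.622 and 0.621, and 9.76% of the 31444 genes had their GLUP values entirely below Con.

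The SLC39 proteins bring zinc into the cytosol, and 12 of their 14 genes were above 0. Of these 12, 1 had an unadjusted p under 0.05 and none an adjusted one. The share of all genes under an unadjusted 0.05 was 21.7% in the fit of genes of at least 1 FPKM and 8.08% in the fit used for the others. SLC39A7, which releases zinc from the endoplasmic reticulum and Golgi, was at 1.53, 1.03 and 3.37 FPKM in Con and at 4.85, 4.25 and 2.71 FPKM in GLUP, so that Con replicate 3 exceeded GLUP replicate 3. The fitted log2 difference was 0.78 (SE 0.34), and limma's adjusted p was 0.217. SLC39A1, the most abundant importer by the mean over all 6 libraries, was at 7.20 ± 3.77 FPKM in Con and 13.7 ± 5.45 FPKM in GLUP (SD, n = 3 each), a log2 difference of 0.92 (SE 0.45), and limma's adjusted p was 0.254. SLC39A11, named after its values were seen, lay on the other side, at 7.07, 23.3 and 4.97 FPKM in Con and 5.02, 4.88 and 3.84 FPKM in GLUP, a log2 difference of -0.92 (SE 0.47), and limma's adjusted p was 0.263. Con replicate 2 stood far above the other libraries, and the groups overlapped. The median log2 fold change of the 6 SLC39 genes of at least 1 FPKM was 0.01, against -0.23 for all genes tested.

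Of 6 other genes tied to MTF1 in the literature, all above 0, 2 were lower in GLUP at an unadjusted p under 0.05 and 0 were higher. In the fit used for GCLC 17.2% of all genes were lower at this level, and in the fit used for NDRG1 5.9% were. GCLC, the catalytic subunit of the enzyme that starts glutathione synthesis, was at 1.69, 2.14 and 0.882 FPKM in Con and at 0.526, 0.644 and 0.679 FPKM in GLUP, a log2 difference of -0.64 (SE 0.24), and limma's adjusted p was 0.198. NDRG1, a stress and hypoxia gene, did not exceed 0.118 FPKM in any library. SELENOW and CSRP1, named after their values were seen, had every GLUP value above every Con value. SELENOW was at 16.1 ± 8.21 and 24.3 ± 2.22 FPKM and CSRP1 at 0.279 ± 0.146 and 0.553 ± 0.0787 FPKM (SD, n = 3 each), with adjusted p-values of 0.309 and 0.591 in limma. The groups thus did not overlap in 2 genes higher and 2 lower in GLUP. Among the 7406 genes fitted with GCLC and SELENOW, 7.55% were entirely higher and 22.7% entirely lower. Among the 31444 genes fitted with CSRP1 and NDRG1 these shares were 4.39% and 9.76%. The list lay on both sides of 0, and the 2 genes that reached 1 FPKM, GCLC and SELENOW, had a median log2 fold change of 0.04.

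Copper is the other metal that metallothioneins hold. Of 12 genes of copper uptake, delivery and export, 9 were tested, and their median log2 fold change was -0.25. At an unadjusted p under 0.05, 1 was higher and 2 were lower in GLUP, where 4.46% of all tested genes were higher and 17.2% lower. SCO2 and SCO1 are the paired copper chaperones of cytochrome c oxidase, and on the FPKM scale as deposited they lay on opposite sides of Con. SCO2 was at 2.02, 0.0559 and 3.25 FPKM in Con and at 7.32, 6.66 and 3.20 FPKM in GLUP, a log2 fold change of 1.43 (SE 0.49). SCO1 was at 2.70 ± 0.657 FPKM in Con and 1.12 ± 0.261 FPKM in GLUP (SD, n = 3 each), a log2 fold change of -0.80 (SE 0.24). COMMD1, which helps to sort copper transporters, was at 322.3 ± 87.5 and 164.4 ± 33.8 FPKM (SD, n = 3 each), a log2 fold change of -0.95 (SE 0.32). Adjusted p-values of the 3 genes ran from 0.194 to 0.198 in limma. In SCO2 the groups overlapped, with GLUP replicate 3 below Con replicate 3. In SCO1, COMMD1 and SLC31A1 every GLUP value was below every Con value, as in 22.7% of all tested genes. SLC31A1, named after its values were seen, was at 8.80 ± 3.27 and 5.04 ± 0.159 FPKM (SD, n = 3 each), and limma's adjusted p was 0.254.

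Genes that report the other known inducers of metallothioneins were also listed. Of 8 glucocorticoid response genes none had an unadjusted p under 0.05. TSC22D3, a classical target of the receptor, was at 4.96 ± 2.00 FPKM in Con and 6.32 ± 0.702 FPKM in GLUP (SD, n = 3 each), and SGK1, a kinase of the same response, at 1.71 ± 0.432 and 1.68 ± 0.0985 FPKM (SD, n = 3 each). FKBP5 and DUSP1, further targets of the receptor named after their values were seen, had every GLUP value below every Con value. FKBP5 was at 1.31 ± 0.467 and 0.707 ± 0.0371 FPKM and DUSP1 at 0.695 ± 0.344 and 0.319 ± 0.148 FPKM (SD, n = 3 each), with adjusted p-values of 0.269 and 0.614 in limma. This order held in 22.7% of genes in the fit used for FKBP5 and in 9.76% in the fit used for DUSP1. NR3C1, the gene of the receptor, named after its values were seen, was listed at 0 in 5 libraries and at 0.0045 FPKM in GLUP replicate 2. Of 8 stress genes that heavy metals induce, 2 were lower in GLUP at an unadjusted p under 0.05 and none was higher, where 17.2% of all tested genes were lower and 4.46% higher. HSPB1, a small heat shock protein, was at 358.2, 189.8 and 416.1 FPKM in Con and at 106.5, 119.1 and 113.6 FPKM in GLUP, a log2 difference of -1.42 (SE 0.34), and limma's adjusted p was 0.194. HSPH1, a large heat shock protein, was at 4.53 ± 2.96 and 1.47 ± 0.573 FPKM (SD, n = 3 each), with overlapping groups and an adjusted p of 0.198 in limma. The median of the 5 tested genes of this list was -0.45.

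The genes that flank the metallothionein cluster on chromosome 16 served as a comparison for the region. None of the 7 had an unadjusted p under 0.05, and the 5 with at least 1 FPKM had a median log2 fold change of -0.05. In the fit used for these 5, 21.7% of all genes were under 0.05, and in the fit used for the others 8.08% were. HERPUD1, a gene of endoplasmic reticulum stress, was at 38.6 ± 23.4 and 28.4 ± 7.28 FPKM (SD, n = 3 each), and NUP93, a nuclear pore component that lies next to MT1X, at 10.3 ± 4.73 and 8.08 ± 1.85 FPKM (SD, n = 3 each). In both the groups overlapped.

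**Figure D3:**
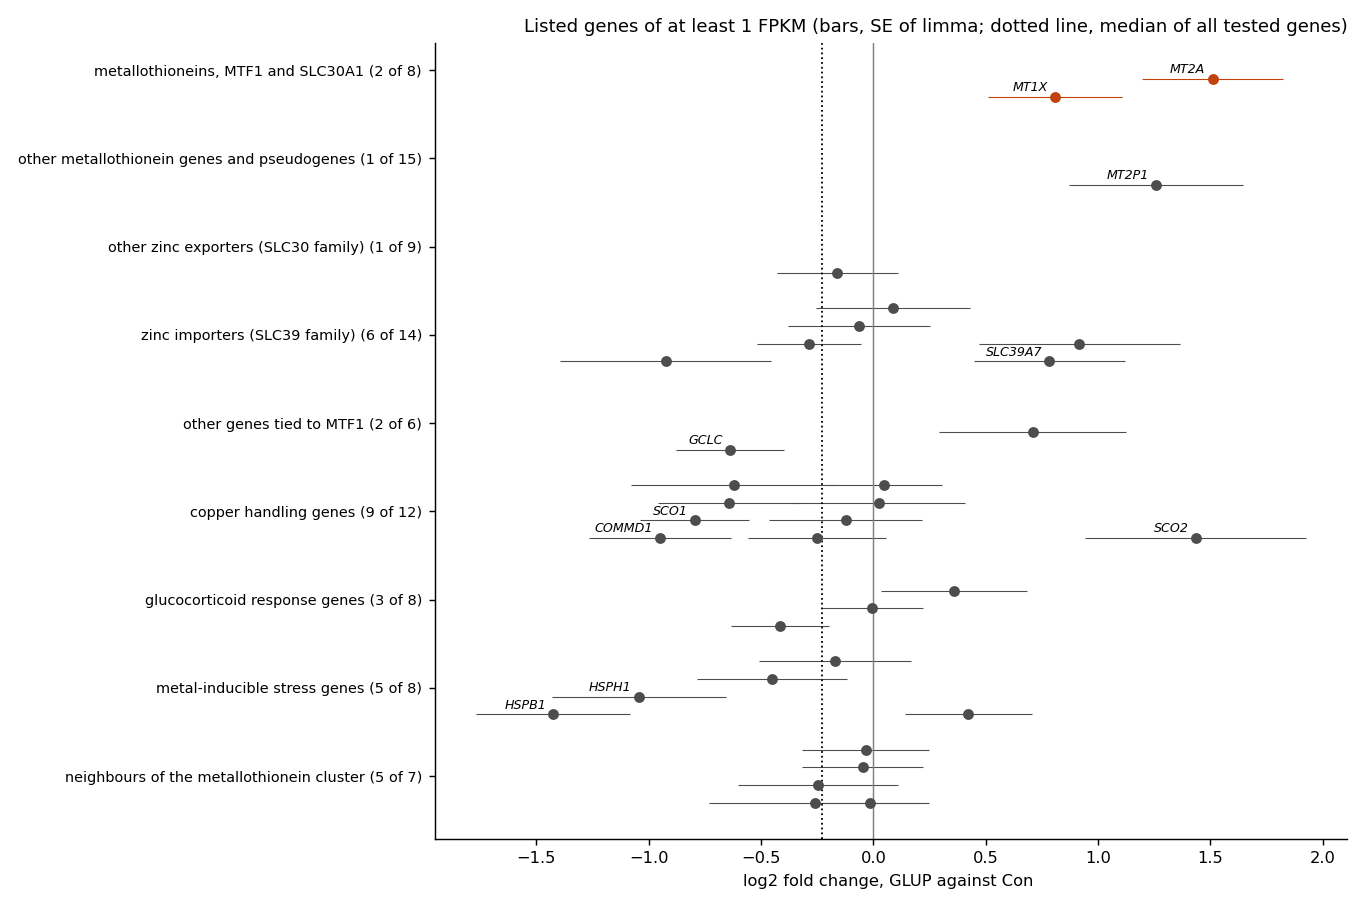
Log2 fold change of GLUP against Con, on the log2(FPKM + 1) scale, for the listed genes that averaged 1 FPKM or more, one row of points per list with the number tested of the number listed, bars showing the SE of limma and names given where the unadjusted p was under 0.05. MT2A, MT1X and MT2P1 lie to the right at 0.81 to 1.51, while the dotted line marks the median of all tested genes at -0.23.

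The libraries themselves differed. FPKM summed to 909735 to 965147 per library, the number of reads is unknown, and mitochondrially encoded genes held 21.9% of the total in GLUP replicate 3 compared with 26.8% to 29.7% in the other 5. Con replicate 2 correlated least with the others, with a mean Pearson correlation of 0.898 across genes against 0.954 to 0.964. The defining epithelial markers EPCAM and CDH1 reached at most 0.124 FPKM, whereas the epithelial keratins were expressed, with KRT7 at 5.24 to 7.78 FPKM. KRT8, KRT18 and KRT19 were higher in every GLUP library than in any Con library, KRT18 at 0.959 ± 0.0434 FPKM against 2.14 ± 0.445 FPKM (SD, n = 3 each), and limma's adjusted p was 0.194 for KRT18. Such an order held in 7.55% of tested genes. CDH1 went the other way, at 0.0687, 0.0799 and 0.0148 FPKM in Con and 0 in every GLUP library, an order found in 9.76% of genes above 0. Its adjusted p from limma was 0.589, and EPCAM and KRT7 overlapped. Among 4 mesenchymal markers VIM was at 222.2 to 387.2 FPKM with overlapping groups. ZEB1, also with overlapping groups, was at 9.93 ± 8.23 FPKM in Con and 3.89 ± 1.72 FPKM in GLUP (SD, n = 3 each). FN1 was at 1.80 ± 1.26 FPKM in Con and 0.656 ± 0.0137 FPKM in GLUP (SD, n = 3 each), where limma's adjusted p was 0.226. CDH2 reached at most 0.0508 FPKM and was at 0 in every GLUP library. Every GLUP value lay below every Con value in FN1, as in 22.7% of tested genes, and in CDH2, as in 9.76% of genes above 0. The 3 endothelial markers found summed to at most 0.0059 FPKM, with CDH5 at 0, and 3 liver markers to at most 0.813 FPKM, with ALB at 0. The 6 fibroblast markers summed to 87.8 to 124.8 FPKM in Con and 92.4 to 123.3 FPKM in GLUP. In bulk RNA, fewer cells of a type and less RNA per cell cannot be told apart, and the part of these markers in the results was not tested.

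Base composition moved with the comparison. Across 7279 genes the log2 fold change was higher at higher GC content of the transcript, with a Spearman correlation of 0.555, as a description over genes that share the same 6 libraries. MT2A has a GC content of 55.6%, and in its bin of 728 genes of like GC content the median log2 fold change was 0.12 and 7 genes had a larger one. MT1X has a GC content of 49.3%, in a bin of 727 genes with a median of -0.21, where 22 had a larger one. Both transcripts are short, at 401 and 404 bases, and among the 729 shortest genes (median -0.04) 2 had a larger log2 fold change than MT2A and 49 a larger one than MT1X. After the trend in GC content and length was removed from each library, the log2 fold changes were 1.42 for MT2A and 0.87 for MT1X. With the libraries scaled to their totals without mitochondrial genes they were 1.46 and 0.76. SLC30A1 has a GC content of 40.7%, in a bin of 728 genes with a median of -0.46, where 276 had a larger log2 fold change than its -0.35. In its bin of 728 genes of like length the median was -0.39, and 324 had a larger one. Over all tested genes the median was -0.23. The genes of these bins averaged 1 FPKM or more, unlike SLC30A1. With each library centred on its median, SLC30A1 differed by -0.08 on the log2 scale, with an unadjusted limma p of 0.656.

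**Figure D4:**
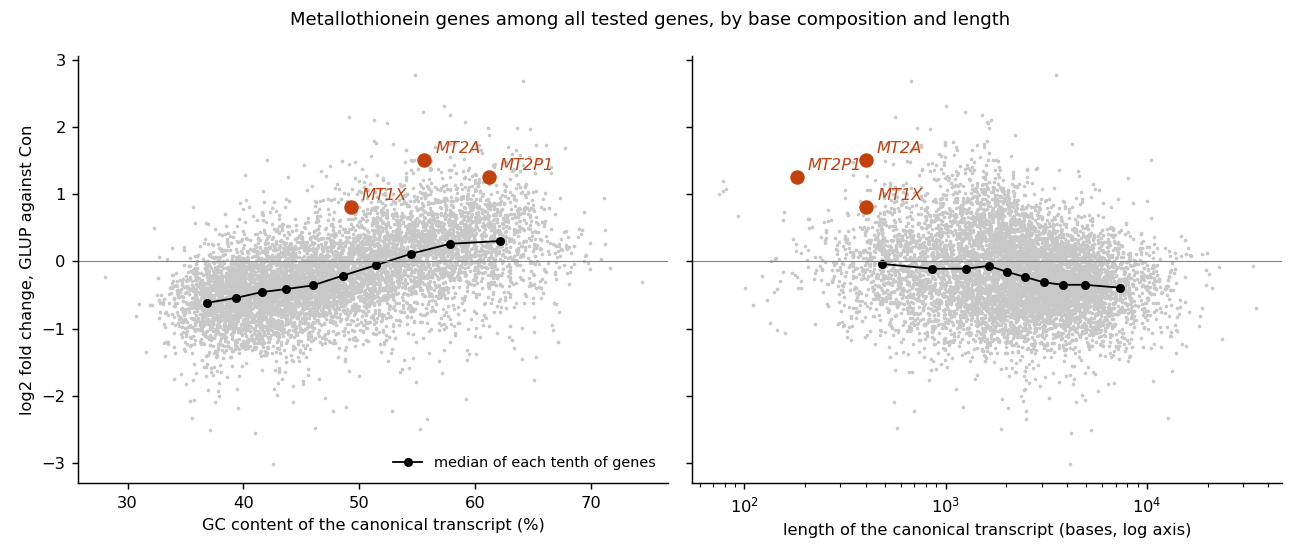
Log2 fold change of GLUP against Con for the tested genes (grey) against GC content in percent and against transcript length in bases on a log axis, with the median of each bin of genes in black. MT2A at 1.51, MT1X at 0.81 and MT2P1 at 1.26 lie above the medians of their bins in both panels.

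The genes whose pattern over the 6 libraries was most like that of MT2A were sought among the 7403 tested genes that are not metallothioneins, by the Pearson correlation of log2(FPKM + 1). The highest were PPIAP31 (0.990), ATP5MC2 (0.986), BEX3 (0.985), RN7SL2 (0.983) and S100A4 (0.982). MT1X reached 0.971. In all, 33 genes were over 0.95. Of the 5, ATP5MC2 encodes a subunit of the mitochondrial ATP synthase and was at 217.0 to 287.3 FPKM in Con and 390.2 to 477.9 FPKM in GLUP. S100A4, a calcium-binding protein of motile cells, was at 67.1 to 84.4 FPKM in Con and 190.1 to 387.6 FPKM in GLUP. PPIAP31 and RN7SL2 have near-identical copies elsewhere in the genome, and their values are uncertain. These correlations run over both groups together and are given as a description of 6 libraries.

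**Figure D5:**
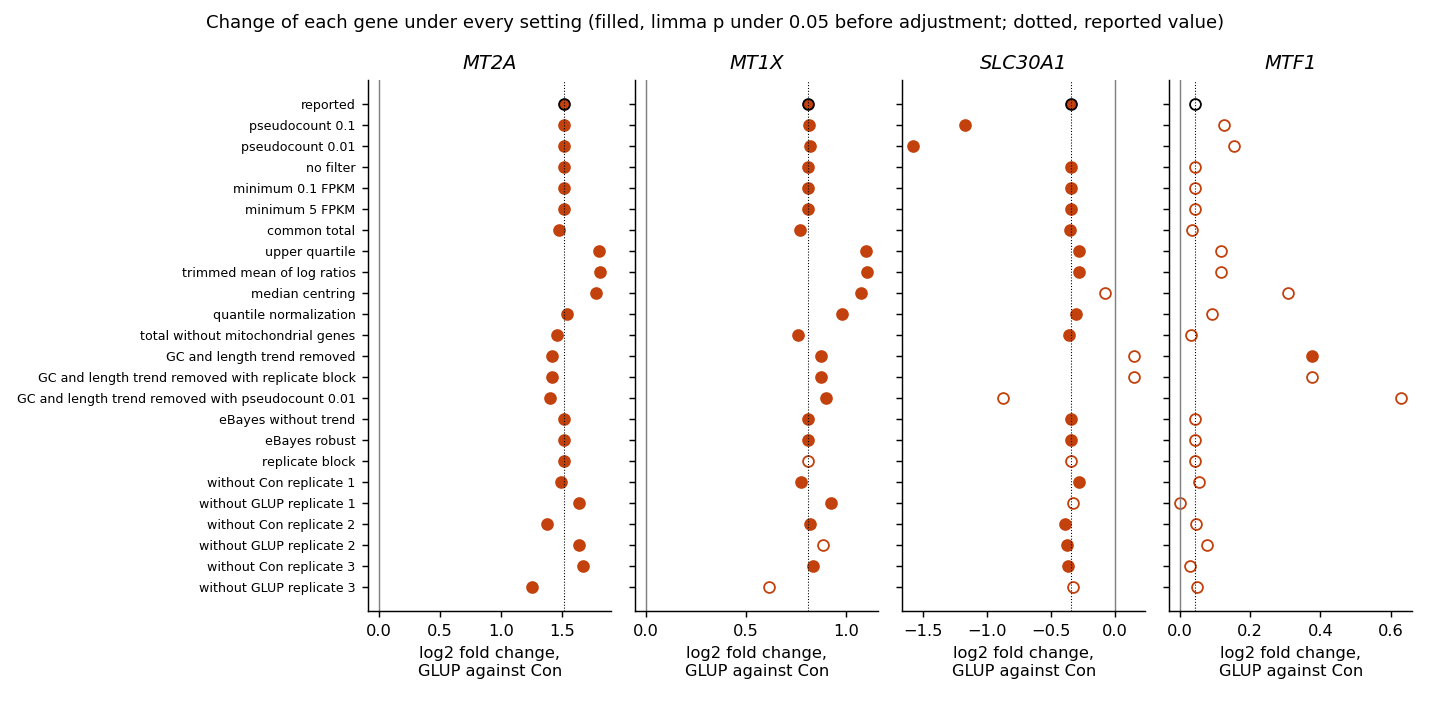
Log2 fold change of MT2A, MT1X, SLC30A1 and MTF1 under the reported setting and 23 others, with filled points where the unadjusted p was under 0.05. MT2A stayed between 1.25 and 1.81 and MT1X between 0.62 and 1.11, SLC30A1 ran from -1.57 to 0.15, and MTF1 from 0.0017 to 0.63.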

How the data were processed

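RNA of 6 samples (3 Con, 3 GLUP, grouped by sample title) was analysed from 1 table of FPKM values per gene that the authors deposited. The submitters' processing notes name HISAT2, Cufflinks and RSEM and the build GRCh38.p10, without roles or versions, whereas the gene identifiers are those of a GENCODE annotation lifted to GRCh37. FPKM carries no counts, so depth is unknown and no counting interval is given. Of 62492 rows, 49 pseudoautosomal copies, all at 0, were summed with their counterparts. GENCODE release 44 in its GRCh37 version supplied coordinates, GC content and length (98.3% of tested genes), and 62162 genes had a symbol.

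Values were taken as log2(FPKM + 1). Genes averaging 1 FPKM or more (7406) were fitted with limma 3.58.1 (eBayes with trend, two-sided, no covariates) in R 4.3.3, with Benjamini-Hochberg adjustment over all of them and a threshold of 0.05. Genes below the minimum took values from the same fit over 31444 genes. Fits were tested on simulated data. The study's methods name an analysis platform and no test.

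The genes and lists were chosen with earlier results of these data known. Named genes were the 8 genes, the other metallothioneins, in each other list those with an unadjusted p under 0.05 and, up to 2 in all, the most abundant, and the 5 genes most correlated with the most abundant of the 8. Alternatives were other pseudocounts, filters, scalings and variance models, loess correction for GC content and length (span 0.5), a block for the replicate number, and fits lacking 1 sample in turn. Trimmed-mean scaling dropped 30% of genes by ratio and 5% by level from either end. Python 3.11.15, pandas 2.3.3, numpy 2.4.6 and matplotlib 3.10.9 were used. The leukocyte marker list is not reported here.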

Additional observations from a re-analysis of the deposited data

How the results depend on the processing

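Over 23 alternatives MT2A kept its direction, with an unadjusted limma p of 0.000344 to 0.00456 and an adjusted p of 0.0289 to 0.589, and MT1X kept its direction, with 20 of 23 unadjusted p-values under 0.05 and adjusted p-values of 0.0844 to 0.589. SLC30A1 turned from -0.35 to 0.15 once GC content and length were corrected for, and to 0.15 when the replicate block was added to that. With a pseudocount of 0.01, a setting chosen after seeing the data, the same correction gave -0.88. In all other alternatives its difference stayed negative. The cause was not tested. MTF1 stayed positive in all 23 alternatives, at 0.0017 to 0.63. Its unadjusted limma p was under 0.05 in 1 of them, the correction for GC content and length without a block (0.0394). The count of these genes with an adjusted p under 0.05 was 0 except without Con replicate 3, and ran from 0 to 1 over the fits that left out a library. The count over all genes, 0 in the reported fit, was 1 in each of 5 settings, namely a filter at 5 FPKM, untrended eBayes, correction for GC content and length (1 also with the replicate block added to it) and the replicate block alone, and ran from 0 to 1367 over the fits that left out a library (3 without Con replicate 2, 1367 without Con replicate 3, 0 without any other). The number of genes with an unadjusted p under 0.05, 1606 in the reported fit, was lowest without GLUP replicate 2 (785) and highest without Con replicate 3 (2986), and was 2541 without a filter. The log2 ratio of the summed metallothionein FPKM was 1.44, and stayed between 1.15 and 1.71 under the 9 alternatives tried for it.

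Shared replicate numbers gave no pairing, since same-numbered libraries deviated from their group means with correlations of 0.13, -0.01 and -0.17. With the number as a block the unadjusted p of MT1X was 0.0511 and that of SLC30A1 0.0663, and the adjusted p of MT2A was 0.157. Without read counts, differences among genes below 1 FPKM cannot be given a counting error.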
